A study of Mus musculus with 28 samples.

Results

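Pituitary transcripts of restrained mice were compared between animals that had been sleep deprived beforehand and animals that had not. These were the 13 restrained mice of the 28 mice sequenced. The PSD + restraint mice numbered 7 (4 females, 3 males) and the restraint mice 6 (4 females, 2 males). Paradoxical sleep deprivation (PSD) kept cage mates on small columns above water for 12 h, so that the loss of muscle tone at the onset of REM sleep woke them. Restraint lasted 20 min in a plexiglas restrainer, and the whole gland was taken 10 min after its end, 18 h after the end of PSD. All mice were C57BL/6J, 8 weeks old, and all of them, the home cage groups included, had been accustomed to the tanks before the experiment. The restraint mice stayed in their home cages during the deprivation period, so that lost sleep and time on the columns cannot be told apart. The comparison asks whether a gland that answers an acute stressor differs after an earlier sleep deprivation.

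The pituitary is the middle step of the hypothalamic-pituitary-adrenal axis. Corticotropin-releasing factor from the hypothalamus drives corticotropes of the anterior lobe to transcribe Pomc and to release ACTH, and the glucocorticoids that follow act back on the gland through their receptors. A whole gland also holds somatotropes, lactotropes, gonadotropes and thyrotropes, the melanotropes of the intermediate lobe, the pituicytes and axon endings of the posterior lobe, folliculostellate cells, vessels and resident macrophages. In such bulk RNA, fewer cells of a type and less RNA per cell cannot be told apart.

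Between 14024465 and 52239975 counts on genes were recorded per restrained mouse, with a median of 31965724, and Gh, Prl and Pomc together took 24.8% to 32% of them. These hormone transcripts were abundant in every library, as the label of the tissue has it. Levels are given as CPM (read counts scaled to the library size by the TMM method), which compare mice within a gene and not genes with each other. Some libraries stood apart. Restraint female 3 had 82.1 CPM of Cox8b, a subunit of cytochrome oxidase known from muscle and brown fat, where the other 12 mice had 0.103 to 0.5795 CPM, and 1092 CPM of Scd1, a fatty acid desaturase, against 8.92 to 26.0 CPM. PSD + restraint female 4 had the highest forebrain neuron score (mean log2 CPM of marker genes), 3.391, against 1.194 to 2.329 in the other restrained mice. PSD + restraint male 2 had the highest summed level of neutrophil markers, 95.8 CPM, against 0.785 to 11.1 CPM. Restraint female 4 had the highest transcripts of MHC class II genes, given below with that list.

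Of 17861 genes tested, 6 were called (0.0336% of those tested), where a call needs an adjusted p of 0.05 or less and a log2 difference of 0.32 or more in either direction. Those 6 were higher after PSD, and 0 were called lower. Serpina3n and Lcn2, both acute phase genes, rose by 2.12 and 1.20 on the log2 scale. Serpinb11, Cdh13 and Cys1 rose by 1.97, 1.34 and 0.78. The test was edgeR's quasi-likelihood test over all genes with sex as a term and Benjamini-Hochberg adjustment. An unadjusted p under 0.05 was found for 2176 genes (12.2% of those tested), with 1168 higher (6.54%) and 1008 lower (5.64%) after PSD. DESeq2, with the study's shrinkage of fold changes but on the same 17861 genes and 13 mice rather than with the study's filter and model of all mice, called 28 genes (0.157%), 26 higher (0.146%) and 2 lower (0.0112%). Its fold changes are shrunken towards 0, and on the log2 scale were 0.605 for Serpina3n, 0.56 for Lcn2, 0.332 for Serpinb11, 0.427 for Cys1 and 0.368 for Cdh13. The number of calls rested on single libraries. It was 61 without restraint female 2 and 12 without PSD + restraint male 3, 3 without PSD + restraint female 2, 2 without restraint male 2 or without restraint male 3, and 1 without restraint female 4 or without PSD + restraint female 3. Without restraint female 3, PSD + restraint female 4 and PSD + restraint male 2, left out together as a choice made after seeing the data, 0 genes were called and 1613 had an unadjusted p under 0.05.

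Serpina3n (chromosome 12, 104406729 to 104414329 on GRCm38) encodes a secreted inhibitor of serine proteases that is induced in the acute phase. Restraint females had 0.785, 2.155, 1.07 and 0.610 CPM and PSD + restraint females 5.22, 5.14, 5.88 and 5.13 CPM. Restraint males had 1.20 and 2.15 CPM, and PSD + restraint males had 8.80, 6.05 and 5.77 CPM. The lowest deprived mouse lay above the highest mouse without deprivation, across both sexes. The log2 fold change was 2.12 (standard error 0.24, adjusted p = 0.0055 by edgeR's quasi-likelihood test). It was 2.17 in females and 2.02 in males, fitted separately. Serpina3n belongs to a cluster of closely related genes, among which reads can be hard to assign, so that its level carries that uncertainty.

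Lcn2 (chromosome 2, 32384633 to 32388252) encodes lipocalin 2, an acute phase protein that binds bacterial iron carriers. Its level was 12.8, 21.5, 14.5 and 14.8 CPM in restraint females and 51.3, 39.8, 47.2 and 41.4 CPM in PSD + restraint females. Males started higher, with 72.8 and 48.6 CPM after restraint alone and 86.7, 94.8 and 126.8 CPM after PSD + restraint. The groups did not overlap within a sex, but the restraint males overlapped with the deprived females. The log2 fold change was 1.20 (standard error 0.16, adjusted p = 0.017 by edgeR). It was 1.49 in females and 0.76 in males, and the difference between the sexes did not pass the test (adjusted p = 0.377 by edgeR). Neutrophils also contain lipocalin 2, and the male with the highest neutrophil markers had 94.8 CPM of Lcn2. A fit that also held the neutrophil marker score, chosen once the data had been seen, gave 1.29 for Lcn2 (adjusted p = 0.041 by edgeR). The part of neutrophils in the difference of Lcn2 was not tested.

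Serpinb11 (chromosome 1, 107361198 to 107380475) encodes a serpin of the intracellular clade. The 4 restraint females had 4.20, 4.84, 1.98 and 1.90 CPM, and the 4 PSD + restraint females had 8.945, 12.2, 14.8 and 7.64 CPM. In males the level was 2.615 and 4.27 CPM after restraint and 22.5, 21.9 and 8.805 CPM after PSD + restraint. Its log2 fold change was 1.97 (standard error 0.29, adjusted p = 0.0236 by edgeR). Again the groups did not overlap, and PSD + restraint male 3 was well below the other deprived males.

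Cdh13 (chromosome 8, 118283733 to 119324921) encodes T-cadherin, a cadherin held in the membrane by a lipid anchor, which binds adiponectin. Restraint females had 26.0, 25.8, 14.7 and 13.6 CPM and PSD + restraint females 59.0, 51.9, 51.9 and 34.6 CPM. Restraint males had 13.5 and 22.95 CPM and PSD + restraint males 58.5, 58.1 and 29.1 CPM. Cdh13 rose by 1.34 on the log2 scale (standard error 0.21, adjusted p = 0.0372 by edgeR). Restraint females 1 and 2 were the highest of their group, PSD + restraint female 4 and male 3 the lowest of theirs, and the groups did not overlap.

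Cys1 (chromosome 12, 24665833 to 24681813) encodes cystin 1, a protein of the primary cilium. It was low and moved least among these genes, with 1.71, 1.91, 1.56 and 1.63 CPM in restraint females and 2.61, 2.99, 2.59 and 3.31 CPM in PSD + restraint females. In males it was 1.51 and 1.59 CPM after restraint and 2.75, 3.08 and 2.29 CPM after PSD + restraint. The log2 fold change was 0.78 (standard error 0.11, adjusted p = 0.0236 by edgeR), and the groups did not overlap. Across all genes tested, the groups failed to overlap in both sexes, with deprived mice higher, for 89 genes (0.498%), and these 5 genes are among them. For 81 genes (0.454%) the deprived mice were lower in both sexes without overlap.

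**Figure D1:**
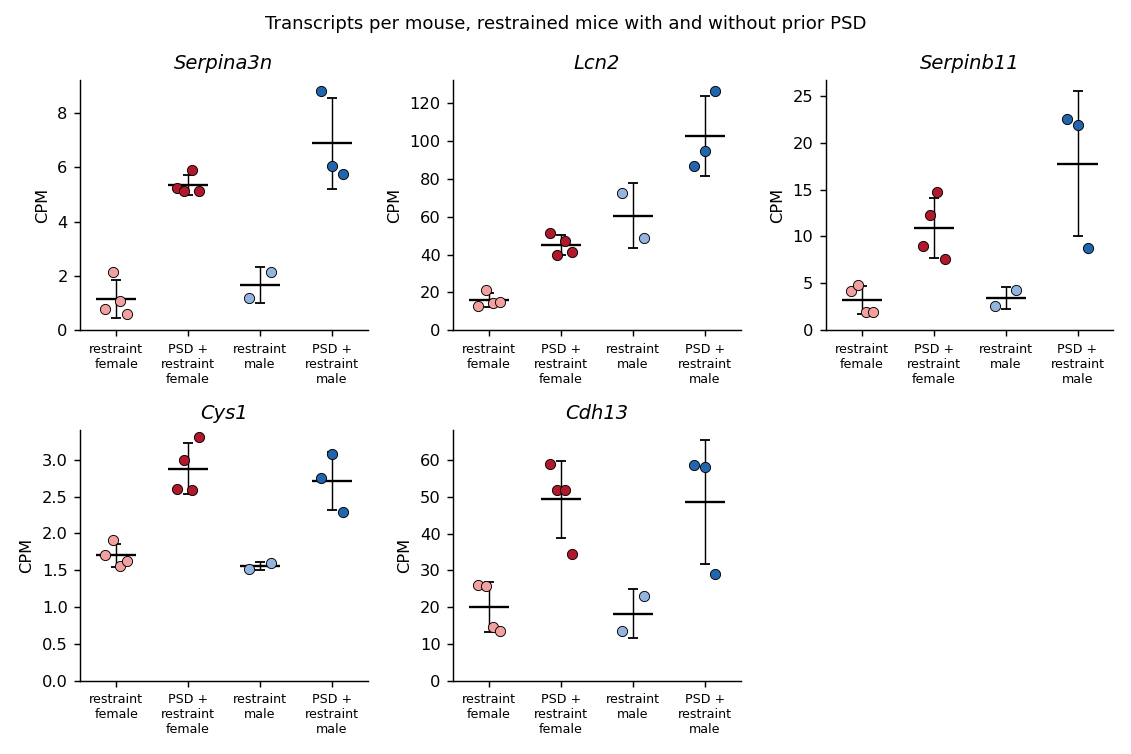
CPM per mouse (vertical axes, linear from 0) of the 5 named genes in restraint females (n = 4), PSD + restraint females (n = 4), restraint males (n = 2) and PSD + restraint males (n = 3). Points are mice, horizontal bars are means and whiskers are SD. Within each sex, every mouse with PSD lies above every mouse without it.

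Markers of the neurointermediate lobe had higher means in the deprived mice, with overlap between the groups. A neurointermediate lobe score (mean log2 CPM of Pax7, Pcsk2, Oacyl, Rax and Col25a1) averaged 6.447 in restraint females (5.986 to 6.977) and 6.884 in PSD + restraint females (6.612 to 7.105). In males it averaged 6.390 (6.317 to 6.462) and 6.822 (6.219 to 7.202). The score was lowest in restraint female 3 (5.986) and highest in PSD + restraint male 2 (7.202), without which 8 and 7 genes were called. Restraint female 2, without which the count was 61, had 6.977, within the range of the deprived females. PSD + restraint male 3, without which it was 12, had 6.219, below both restraint males. Restraint female 1, at 6.743, also lay within the range of the deprived females, and 5 genes were called without it. Restraint female 4 had 6.082, and 1 gene was called without it. The part of the score in these counts was not tested. With the score as a term in the model, 3 genes were called: Serpina3n at 1.88 (adjusted p = 0.0149), Serpinb11 at 1.42 (adjusted p = 0.013) and Cdh13 at 0.87 (adjusted p = 0.013) on the log2 scale, by edgeR. Among these, the value of Cdh13 moved by more than 1.5 times. Lcn2 had 1.215 (adjusted p = 0.0644) and Cys1 0.69 (adjusted p = 0.249). With the 3 libraries that stood apart left out, the log2 fold changes were 2.14 for Serpina3n, 1.21 for Lcn2, 1.90 for Serpinb11, 1.296 for Cdh13 and 0.68 for Cys1, with adjusted p-values from 0.0795 to 0.157 by edgeR.

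**Figure D2:**
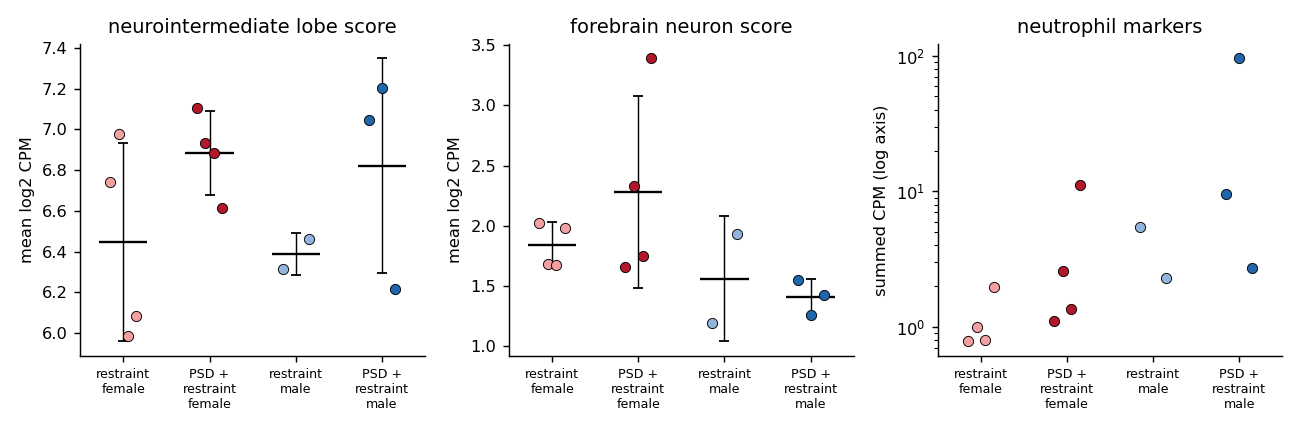
The neurointermediate lobe score and the forebrain neuron score (mean log2 CPM of marker genes, linear axes that do not start at 0) and the summed CPM of neutrophil markers (log axis) for each restrained mouse. Points are mice, and in the score panels horizontal bars are means and whiskers SD. The neurointermediate score overlaps between the groups in both sexes, and PSD + restraint female 4 (forebrain score 3.391) and PSD + restraint male 2 (95.8 CPM of neutrophil markers) stand above the others.

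The bases before the start of these genes are shown next. The genes were chosen because each was called higher, and a shared control was not tested. RefSeq promoter entries on GRCm38.p6 matched 4 of the 5 (Cdh13 had none). The 250 bases before the RefSeq transcript start were searched on both strands for 4 motifs, chosen with the results known. The motifs were the glucocorticoid receptor palindrome, the C/EBP motif TTGCNNAA, the AP-1 motif TGANTCA and the STAT motif TTCNNNGAA, and no match overlapped another. Matches are in capitals, each sequence runs 5′ to 3′ on the strand of its gene, and Cys1 held no match. The RefSeq starts of Lcn2 and Serpinb11 lie inside the wider GENCODE spans given above, so that their windows are upstream of the RefSeq start and downstream of the outermost GENCODE start.
Serpina3n, chr12:104406458-104406707, plus strand: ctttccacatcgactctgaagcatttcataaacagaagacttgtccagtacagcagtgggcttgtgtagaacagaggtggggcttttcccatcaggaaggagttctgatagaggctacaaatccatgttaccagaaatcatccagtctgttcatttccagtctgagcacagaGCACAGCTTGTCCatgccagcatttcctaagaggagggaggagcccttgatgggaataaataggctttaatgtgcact
Lcn2, chr2:32387740-32387989, minus strand: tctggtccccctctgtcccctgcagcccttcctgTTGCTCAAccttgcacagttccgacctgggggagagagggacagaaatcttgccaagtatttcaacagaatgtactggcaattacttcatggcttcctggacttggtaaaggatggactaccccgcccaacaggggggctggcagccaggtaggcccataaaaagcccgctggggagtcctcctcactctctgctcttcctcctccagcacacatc
Serpinb11, chr1:107362064-107362313, plus strand: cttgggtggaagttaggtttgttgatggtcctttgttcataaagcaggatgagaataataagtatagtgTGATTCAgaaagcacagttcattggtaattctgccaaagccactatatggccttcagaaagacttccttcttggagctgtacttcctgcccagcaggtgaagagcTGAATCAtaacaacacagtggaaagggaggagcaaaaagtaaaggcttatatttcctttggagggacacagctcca

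Distances are from the RefSeq start. The match in Serpina3n lay 66 to 78 bases before it, and 0.387% of the 32851 promoter entries held that palindrome. The C/EBP match in Lcn2 lay 209 to 216 bases before that start, in a motif found in 9.56% of entries. Serpinb11 held AP-1 matches 175 to 181 and 70 to 76 bases before its RefSeq start, and 6.75% of entries held at least 1. The STAT motif, in 7.02% of entries, was in none of the 4. Such matches describe the letters of these windows and not a site of binding.

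In unrestrained mice, the same difference was measured in animals that the comparison above does not use, 7 PSD mice (4 females, 3 males) against 8 home cage controls (4 of each sex). There 47 genes were called (0.262% of 17958), 39 higher (0.217%) and 8 lower (0.0445%), and 30 when control male 1 and PSD female 1, were left out, the first of which had a neurointermediate score of 3.696 and the second a forebrain score of 4.069 and 27.6 CPM of Serpina3n. Serpina3n rose there by 2.76 on the log2 scale (standard error 0.54, adjusted p = 0.0392 by edgeR), Serpinb11 of 2.23 (standard error 0.30, adjusted p = 0.013), Cdh13 of 1.48 (standard error 0.21, adjusted p = 0.013) and Lcn2 of 0.96 (standard error 0.145, adjusted p = 0.013). Cys1 had 0.51 (adjusted p = 0.0823 by edgeR) and was not called. Without the pair of libraries that stood apart, these values were 2.296, 2.198, 1.37, 0.88 and 0.51 in the same order.

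All 47 genes called in unrestrained mice were tested in the restrained mice. There, 47 had the same sign, and 39 had the same sign with an unadjusted p under 0.05. Of all genes tested in restrained mice, 6.54% were higher and 5.64% lower at that limit. Among genes tested in both, 67.2% of those above 0 and 69.5% of those below 0 in unrestrained mice had the same sign in restrained mice. The median size of the log2 fold change of the 47 genes was 0.69 in unrestrained and 0.63 in restrained mice, and 37 of the 47 were smaller in restrained mice, which were not the mice they were chosen in. Across the 17727 genes tested in both, the log2 fold changes had a Pearson correlation of 0.547, which is a description across genes that share libraries and depth. Examples are Nmb (1.44 unrestrained, 1.22 restrained), Vgf (1.10 and 0.91), Clu (0.70 and 0.61), Arg1 (1.402 and 1.05), Ryr3 (1.08 and 0.67) and Aplnr (-0.89 and -0.76). Gadd45b (0.97 and 0.39) and Gsn (0.42 and 0.20) lay further apart. The neurointermediate score as a term lowered the restrained values of Arg1 to 0.565, Ryr3 to 0.33 and Gadd45b to 0.20. Chit1, a macrophage chitinase, was counted at 0.0325 to 0.277 CPM in restraint mice and 0.160 to 0.969 CPM in PSD + restraint mice, with log2 fold changes of 3.31 unrestrained and 2.17 restrained.

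The test of the difference itself, the PSD-by-restraint interaction over all 28 mice, called 0 of 18282 genes by edgeR and 0 by DESeq2. At an unadjusted p under 0.05 it gave 715 genes (3.91%). The interaction was -0.63 (standard error 0.63) for Serpina3n, 0.24 (standard error 0.23) for Lcn2, -0.24 (standard error 0.44) for Serpinb11, -0.14 (standard error 0.31) for Cdh13 and 0.27 (standard error 0.16) for Cys1 on the log2 scale, with adjusted p-values of 0.9998 by edgeR. A difference between restrained and unrestrained mice within these errors was not detectable.

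**Figure D3:**
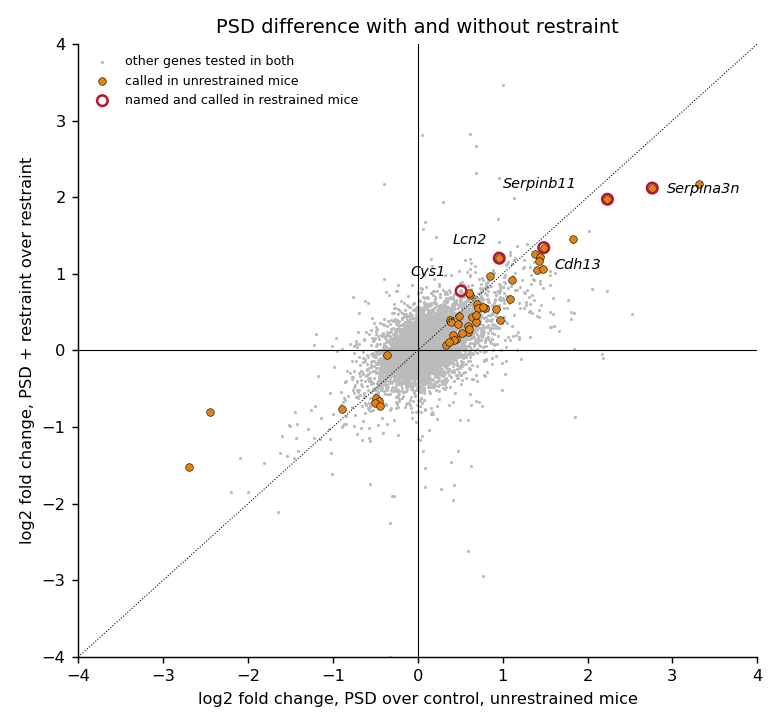
Log2 fold change after PSD in unrestrained mice (horizontal axis, 7 against 8 mice) and in restrained mice (vertical axis, 7 against 6 mice) for 17725 genes, each a point, with 2 genes outside the frame. The called genes of the unrestrained mice, in orange, lie on the same side of 0 on both axes, red rings mark the 5 named genes called in restrained mice, and the dotted line marks equal values.

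The groups of genes described next were read by their members. The named members, unless said otherwise, did not pass edgeR's test in restrained mice, and their log2 fold changes are values with p from edgeR. Beside Serpina3n and Lcn2, DESeq2 called the members Clu, Cd68, Per2, Vgf, Nmb, Mthfd1l and Aldh1l2 higher. Over all genes tested the median log2 fold change was -0.00118, and 8870 of 17861 (49.7%) lay above 0, with the other 50.3% below it. Where groups are said not to overlap in males alone, 3 mice are set against 2, which separates easily. The share of all genes separated in males alone was not counted.

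Acute phase and cytokine response genes are made when cytokines such as interleukin 6 signal through STAT3 and C/EBP factors. Of 30 members tested, 2 were called higher by edgeR (Serpina3n and Lcn2), 19 lay above 0 and the median was 0.105. Of all genes tested, 0.0336% were called. Next among them was Clu, encoding the extracellular chaperone clusterin. It was at 650, 688, 565 and 557 CPM in restraint females and 948, 987, 976.5 and 746 CPM in PSD + restraint females. The males were at 487 and 711 CPM after restraint and 1019, 1060 and 756 CPM after PSD + restraint, a log2 difference of 0.61 (standard error 0.10, adjusted p = 0.0731 by edgeR). Deprived mice were the higher ones throughout. Cp, the copper-carrying ferroxidase ceruloplasmin, had 0.31 (adjusted p = 0.186), and Osmr, a receptor subunit for oncostatin M, had 0.51 (adjusted p = 0.291). With the called pair, 6 members had an unadjusted p under 0.05 (20% against 12.2% of all genes), all of them higher.

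MHC class II genes present peptides to helper T cells. Of 11 members, 10 lay below 0, with a median of -0.523, the lowest of all lists. 4 had an unadjusted p under 0.05, all lower (36.4% of the list against 12.2% of all genes), and 0 were called. H2-Aa, the alpha chain of I-A, was at 55.1, 64.5, 63.4 and 153 CPM in restraint females and at 47.9, 51.0, 45.3 and 69.0 CPM in PSD + restraint females. In males it was at 58.7 and 77.6 CPM after restraint and 44.25, 51.4 and 32.2 CPM after PSD + restraint. The groups overlapped in females, where restraint female 4 stood far above the rest of its group, and did not overlap in males. On the log2 scale, H2-Eb1 had -0.72 (adjusted p = 0.289), H2-Ab1 of -0.69 (adjusted p = 0.291), H2-Aa of -0.66 (adjusted p = 0.298) and Cd74, the invariant chain, of -0.63 (adjusted p = 0.344), by edgeR. In unrestrained mice, 4 members were called lower: H2-Ab1 at -0.51, Cd74 at -0.49, H2-Aa at -0.46 and H2-Eb1 at -0.45. Without restraint female 4, the median of the list was -0.271 and 9 of 11 lay below 0. The neurointermediate score as a term left 10 of 11 below 0, with 0 at an unadjusted p under 0.05.

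Macrophage markers include receptors, complement parts and lysosomal proteins of resident phagocytes. Of 24, 21 lay above 0, the median was 0.169, and 5 had an unadjusted p under 0.05 (20.8% against 12.2% of all genes), all higher, with 0 called by edgeR. Cd68, a lysosomal glycoprotein of macrophages, was at 5.89, 5.98, 5.23 and 5.46 CPM in restraint females and 8.05, 10.1, 9.02 and 9.03 CPM in PSD + restraint females. The males were at 6.30 and 6.28 CPM after restraint and 7.935, 6.70 and 10.2 CPM after PSD + restraint. The groups did not overlap, and the log2 fold change was 0.58 (standard error 0.10, adjusted p = 0.074 by edgeR). Trem2, a lipid-sensing receptor of myeloid cells, had 0.39 (adjusted p = 0.249). Il34, a ligand of the CSF1 receptor named after its values were seen, had 0.66 (adjusted p = 0.122 by edgeR). The summed level of 24 macrophage markers ranged from 268 to 328 CPM in restraint females and from 296 to 343 CPM in PSD + restraint females, which overlapped, and from 282 to 293 and 309 to 315 CPM in males, which did not. Lysosomal genes as a list lay evenly about 0, with 17 of 29 above it and a median of 0.00702.

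Core clock genes form the feedback loop in which PER and CRY proteins repress their own activators, CLOCK and BMAL1. Of 20 members, 15 lay above 0, with a median of 0.132, and 10 had an unadjusted p under 0.05 (50% against 12.2%), 9 higher and 1 lower, with 0 called by edgeR. Per2 was at 30.0, 44.5, 23.4 and 33.6 CPM in restraint females and 45.8, 55.5, 52.6 and 54.2 CPM in PSD + restraint females. In males it was at 37.6 and 36.8 CPM after restraint and 56.2, 52.6 and 50.5 CPM after PSD + restraint. The groups did not overlap, though restraint female 2 lay just below the lowest deprived female. Its log2 fold change was 0.61 (standard error 0.11, adjusted p = 0.074 by edgeR), and DESeq2 called it. Cry1 had 0.40 (adjusted p = 0.183) and Per1, also a gene of the restraint response, 0.36 (adjusted p = 0.368). Nr1d1, which encodes the repressor REV-ERB alpha, had the opposite sign, at 20.5 to 28.8 CPM in restraint mice and 15.9 to 20.4 CPM in PSD + restraint mice, a log2 difference of -0.40 (standard error 0.09, adjusted p = 0.186 by edgeR). With the neurointermediate score as a term, Per1 had 0.13, and 2 members were higher and 2 lower at an unadjusted p under 0.05.

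Genes that answer the stressor itself were examined because every mouse here was restrained. Immediate early transcription factors, which are transcribed within minutes of a stimulus, lay above 0 in 28 of 30 cases, with a median of 0.244. Of these, 4 had an unadjusted p under 0.05, all higher (13.3%), and 0 were called. A shift upwards was also present without restraint, with 23 of 29 above 0 in unrestrained mice and a median of 0.519. Fosb, at 26.55 to 109.7 CPM in restraint mice and 28.4 to 142 CPM in PSD + restraint mice, shows how widely single mice of a group differed. Npas4, an activity-dependent transcription factor, had 0.74 (adjusted p = 0.374), Ier3 0.54 (adjusted p = 0.342) and Nab2 0.27 (adjusted p = 0.331), by edgeR. Of 25 kinase and cAMP feedback genes, 23 lay above 0, with a median of 0.266, the highest of all lists, and 10 had an unadjusted p under 0.05, all higher (40%). In unrestrained mice 21 of 25 lay above 0, with a median of 0.197, and 2 were called higher. Among the 10 in restrained mice were the phosphodiesterase gene Pde4b (0.33, adjusted p = 0.286 by edgeR), Fam212b (0.44, adjusted p = 0.291) and the phosphatase gene Dusp2 (0.81, adjusted p = 0.315). With the neurointermediate score as a term, Pde4b had 0.15 and Fam212b 0.24, and 17 of the 25 lay above 0, with 2 higher and 1 lower at an unadjusted p under 0.05. Etv4, an ETS factor downstream of growth factor signalling and named after its values were seen, had 0.81 (standard error 0.14, adjusted p = 0.074 by edgeR) and did not overlap between groups.

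Glucocorticoid receptors and target genes were split, with 12 of 22 above 0 and a median of 0.0433. At an unadjusted p under 0.05, 4 were higher and 2 lower (27.3% against 12.2% of all genes), and 0 were called. Anxa1 had 0.41 (adjusted p = 0.291) and Cdkn1a 0.39 (adjusted p = 0.337). Nr3c1, the glucocorticoid receptor, had 0.20 (adjusted p = 0.401). Pdk4, a kinase that inhibits pyruvate dehydrogenase, had -1.17 (adjusted p = 0.365 by edgeR), and its level of 43.4 CPM in restraint female 3 was the highest of the restrained mice. Without that mouse it had -0.33, and with the neurointermediate score as a term -0.28. Zbtb16, a glucocorticoid-induced transcription factor named after its values were seen, led the fit of males alone. It was at 29.45 and 30.4 CPM in restraint males and 13.1, 13.8 and 15.25 CPM in PSD + restraint males, a log2 difference of -1.09 (adjusted p = 0.0857 by edgeR). In females it was at 7.77, 15.7, 6.655 and 8.07 CPM after restraint and 13.8, 13.3, 13.04 and 8.55 CPM after PSD + restraint. The difference between the sexes did not pass the test across genes (adjusted p = 0.235 by edgeR).

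None of the 9 hormone genes was called by edgeR, and Pomc, Avp and Oxt, all higher, had unadjusted p-values under 0.05. Pomc ranged from 39020 to 94470 CPM in restraint mice (median 56870) and from 66220 to 126200 CPM in PSD + restraint mice (median 93730), at a log2 value of 0.62 for the difference (standard error 0.23, adjusted p = 0.34 by edgeR). Pomc is transcribed in corticotropes and melanotropes, and with the neurointermediate score as a term its value was 0.17 (adjusted p = 0.922 by edgeR). Crhr1, the receptor for corticotropin-releasing factor, had 0.36 (adjusted p = 0.209 by edgeR). Gh had -0.15 (adjusted p = 0.749), Prl -0.20 (adjusted p = 0.506), Cga -0.17 (adjusted p = 0.462), Lhb 0.09 (adjusted p = 0.711) and Tshb -0.03 (adjusted p = 0.951). The signs of Gh, Prl and Tshb turned under at least 1 alternative setting. Fshb had 0.77 (adjusted p = 0.513), with 633 CPM in PSD + restraint female 2 against 117 to 170 CPM in the other deprived females. The posterior lobe transcripts Avp and Oxt had 0.55 (adjusted p = 0.352) and 0.52 (adjusted p = 0.331), and 0.11 (adjusted p = 0.963) and 0.15 (adjusted p = 0.922) with that score as a term, by edgeR. Oxt did not overlap between the male groups, of 3 and 2 mice.

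Granins and prohormone processing genes load and mature the content of secretory granules. Of 27, 18 lay above 0, with a median of 0.111, and 10 had an unadjusted p under 0.05, all higher (37%), with 0 called by edgeR. Vgf, which encodes a granin-like precursor of several peptides, was at 25.7, 26.1, 14.15 and 16.9 CPM in restraint females and 45.2, 35.0, 39.3 and 26.2 CPM in PSD + restraint females. The males were at 14.6 and 16.7 CPM after restraint and 34.3, 42.5 and 22.9 CPM after PSD + restraint. The groups did not overlap within a sex, although the highest restraint female and the lowest deprived female nearly met, and the log2 fold change was 0.91 (standard error 0.17, adjusted p = 0.0935 by edgeR). The convertase gene Pcsk1 had 0.35 (standard error 0.06, adjusted p = 0.075), the carboxypeptidase gene Cpe 0.29 (adjusted p = 0.183), Chga 0.55 (adjusted p = 0.216), Pcsk2 0.67 (adjusted p = 0.293) and Scg2 0.33 (adjusted p = 0.293). Pcsk2 is itself a gene of the neurointermediate score. With that score as a term, Vgf had 0.52, Chga 0.29 and Pcsk2 0.22, and 5 members were higher and 1 lower at an unadjusted p under 0.05.

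Neuropeptides and growth factors of the gland act on neighbouring cells as well as at a distance. Of 27, 23 were tested and 18 lay above 0, with a median of 0.122. At an unadjusted p under 0.05, 8 were higher and 1 lower (39.1% against 12.2% of all genes), with 0 called by edgeR. Nmb encodes neuromedin B, a bombesin-like peptide of the gland. It was at 7.28, 10.7, 5.45 and 3.66 CPM in restraint females and 14.1, 13.96, 16.8 and 11.3 CPM in PSD + restraint females. In males it was at 4.78 and 9.26 CPM after restraint and 24.2, 23.3 and 13.1 CPM after PSD + restraint. Deprived mice were the higher ones in both sexes, and the log2 fold change was 1.22 (standard error 0.23, adjusted p = 0.0935 by edgeR). Cartpt, the precursor of the CART peptide, had 0.67 (adjusted p = 0.286), and Bdnf, a neurotrophin, had 0.72 (adjusted p = 0.291). With the neurointermediate score as a term, Nmb had 0.81 (adjusted p = 0.348) and Bdnf 0.34 (adjusted p = 0.886) by edgeR, and 4 members were higher and 0 lower at an unadjusted p under 0.05.

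**Figure D4:**
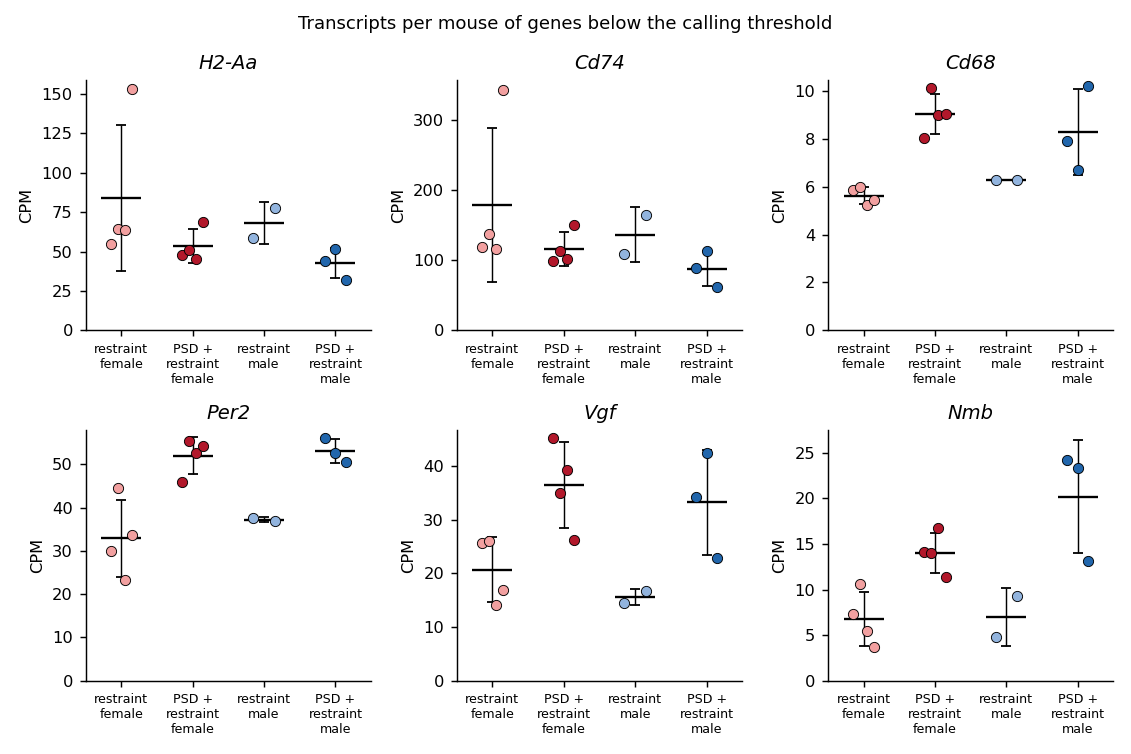
CPM per mouse (linear axes from 0) of 6 genes that were not called by edgeR in restrained mice, in the 4 groups of restrained mice (n = 4, 4, 2 and 3). DESeq2 called Cd68, Per2, Vgf and Nmb higher. Points are mice, horizontal bars means and whiskers SD. H2-Aa and Cd74 overlap between the female groups, with restraint female 4 far above its group, while Cd68, Per2, Vgf and Nmb do not overlap within a sex.

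Genes of serine and one-carbon metabolism, many of them driven by ATF4, the factor of the integrated stress response, lay above 0 in 25 of 29 cases, with a median of 0.215. 9 had an unadjusted p under 0.05, all higher (31%), and 0 were called by edgeR. Mthfd1l, an enzyme of mitochondrial formate production, ranged from 5.16 to 6.99 CPM in restraint females and from 8.39 to 8.94 CPM in PSD + restraint females, and from 7.57 to 8.87 and 9.92 to 11.7 CPM in males. Its log2 fold change was 0.43 (standard error 0.08, adjusted p = 0.0935 by edgeR), and the groups did not overlap within a sex. Aldh1l2, a mitochondrial folate enzyme, had 0.75 (adjusted p = 0.183), Psat1, an enzyme of serine synthesis, 0.34 (adjusted p = 0.271) and the amino acid carrier gene Slc7a3 1.163 (adjusted p = 0.291), by edgeR. The median of the list was 0.0726 in females and 0.345 in males, and the difference of these medians was not tested.

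Oxidative phosphorylation, sterol synthesis and translation serve every cell type of the gland. Of 82 oxidative phosphorylation genes, 75 lay below 0, with a median of -0.138 and 7 lower and 2 higher at an unadjusted p under 0.05 (11% against 12.2%). The median was -0.265 in females and 0.0585 in males. In unrestrained mice 60 of 82 lay above 0, with a median of 0.0342. With the neurointermediate score as a term in restrained mice, 43 of 82 lay below 0. Cox6a2, a subunit isoform known from muscle, had the smallest p of the list and was higher, at 1.45 (adjusted p = 0.259 by edgeR). It was at 0.0339 to 0.277 CPM in restraint mice and 0.214 to 1.123 CPM in PSD + restraint mice, without overlap in males, and was called in unrestrained mice at 1.83. With the score as a term it had 0.93. Cox8b, at -4.42 (adjusted p = 0.340), rested on restraint female 3, and was 0.46 without that mouse. Of 23 cholesterol genes, 18 lay below 0, with a median of -0.141, and 7 were lower at an unadjusted p under 0.05 (30.4% against 12.2%). In unrestrained mice 18 of 23 lay above 0, with a median of 0.0757. In restrained mice Lss, which encodes lanosterol synthase, had -0.18 (adjusted p = 0.249 by edgeR). Fdft1, which encodes squalene synthase, had -0.17 (adjusted p = 0.286 by edgeR). Scd1 had -2.95 (adjusted p = 0.391) and was 0.32 without restraint female 3. Of 80 ribosomal protein genes, 57 lay below 0, with a median of -0.036, and 0 had an unadjusted p under 0.05 in either direction. The median was -0.122 in females and 0.12 in males, and 30 of 80 lay below 0 with the neurointermediate score as a term. In unrestrained mice 68 of 80 lay below 0.

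The remaining lists had 0 called members by edgeR, and medians between -0.0867 and 0.144. In proliferation genes 19 of 26 lay above 0, and Rrm2, a ribonucleotide reductase subunit, had 0.78 (adjusted p = 0.286). Aminoacyl-tRNA synthetases lay below 0 in 15 of 19 cases (Hars -0.27, adjusted p = 0.311), cytosolic heat shock genes in 13 of 18 (Hspd1 -0.22, adjusted p = 0.291) and endoplasmic reticulum folding genes in 21 of 24. In the last of these, Derl3 had 0.44 and Dnajb9 -0.31 (adjusted p = 0.286 for each). Interferon-stimulated genes lay below 0 in 20 of 25 cases, with 0 at an unadjusted p under 0.05. Splicing factors did so in 18 of 23 cases (Srsf6 -0.11, adjusted p = 0.374) and antioxidant and metal handling genes in 20 of 29 (Commd9 -0.26, adjusted p = 0.216, and Ccs -0.24, adjusted p = 0.291).

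**Figure D5:**
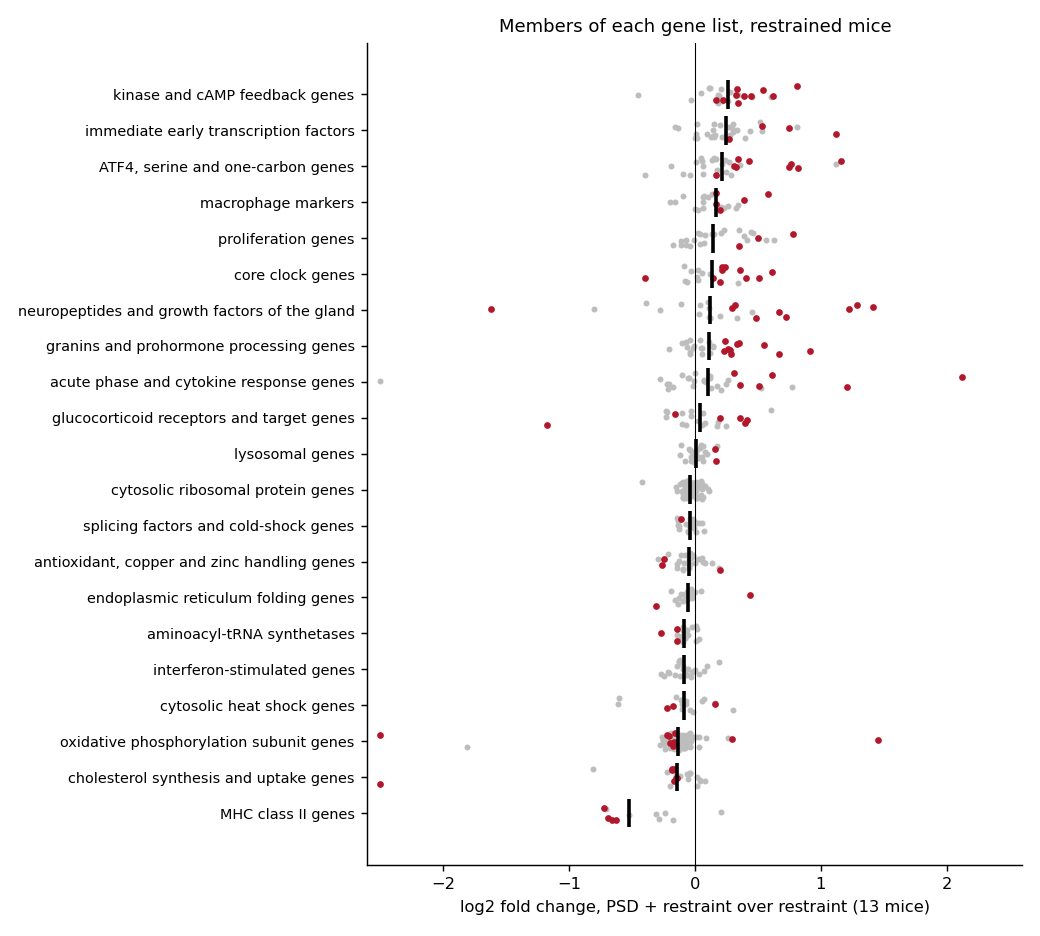
Log2 fold change (PSD + restraint over restraint, horizontal axis) of the tested members of each gene list, with 1 point per gene, black bars for list medians and red points for an unadjusted p under 0.05. The lists run from a median of 0.266 (kinase and cAMP feedback genes) to -0.523 (MHC class II genes), and 3 points beyond 2.5 are drawn at the edge.

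Outside the lists, the genes nearest to a call were read by their p-values. Those with an adjusted p under 0.1 by edgeR were named after their values were seen. Mgp, an inhibitor of calcification made by vessels and fibroblasts, had 0.48 (standard error 0.08, adjusted p = 0.0731), with 77.0 to 85.85 CPM in restraint mice and 89.4 to 132 CPM in PSD + restraint mice. Acta2, smooth muscle actin, had 0.81 (standard error 0.14, adjusted p = 0.074), with 3.49 to 5.855 CPM and 6.49 to 10.9 CPM. Both were without overlap over the 13 mice. Apod, a lipid-binding apolipoprotein, had 0.56 (adjusted p = 0.075) and Lonrf1 0.54 (adjusted p = 0.0515), and the transcript listed as AK154635 had 0.97 (adjusted p = 0.0806). Rcl1, a factor of ribosomal RNA processing, was lower, at 22.4 to 26.4 CPM in restraint mice and 17.6 to 21.1 CPM in PSD + restraint mice, a log2 difference of -0.31 (standard error 0.06, adjusted p = 0.087 by edgeR). DESeq2 called Mgp, Acta2, Apod, Lonrf1 and AK154635 higher, as well as Il34 and Etv4. The pair that DESeq2 called lower were Aplnr, the apelin receptor of vessels, and C2, a complement protease, at -0.76 and -0.65 in edgeR (adjusted p = 0.183 for each).

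Marker genes of cell types were summed in each mouse. Pericyte and smooth muscle markers ranged from 76.6 to 76.75 CPM in restraint males and 83.2 to 90.4 CPM in PSD + restraint males, without overlap, and from 73.2 to 88.75 and 80.1 to 91.5 CPM in females, with overlap. Acta2 and Tagln are among these markers, and 4 of the 6 lay above 0. Thyrotrope markers ranged from 3408 to 4299 CPM in restraint females and 3004 to 3391 CPM in PSD + restraint females, without overlap. They overlapped in males. Most of this sum was Cga, also a gonadotrope marker, at 2938 to 3899 CPM in restraint females. Of the 4 thyrotrope markers 2 lay above 0. Cga had -0.17, Tshb -0.03, Trhr 0.09 and Dio2 0.11 on the log2 scale. The sums of the other cell types overlapped between the groups in both sexes, macrophages in males excepted. The part of such shifts in the differences above was not tested.

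The sexes were also compared in their response. Tested over 18360 genes, the female response minus the male response gave 1 call (0.00545%), Xist, and 2006 had an unadjusted p under 0.05 (10.9%). DESeq2, here with fold changes that were not shrunken, called 151 (0.822%). Xist is transcribed from the inactive X chromosome. Females had 785 to 1045 CPM of it with or without PSD, and males 0.138 and 0.208 CPM after restraint and 1.235, 1.702 and 1.302 CPM after PSD + restraint. The log2 difference, female minus male, was -2.81 (adjusted p = 0.00376 by edgeR). It rested on the low male levels, of which those after restraint alone are near the floor of counting. Fitted alone, females gave 3 called genes (0.0172% of 17487), all higher: Lcn2 at 1.49, Mgp at 0.55 and Cdk5rap2, a centrosome gene, at 0.60 (adjusted p = 0.0123 for each by edgeR), and DESeq2 called 87 (0.498%). The value of Cdk5rap2 was -0.17 in males. Males, 3 against 2, gave 0 called of 17719 genes by edgeR, 1582 at an unadjusted p under 0.05 (8.93%), and 145 called by DESeq2 (0.818%).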

How the data were processed

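Whole pituitaries were sequenced as paired-end, stranded mRNA libraries. The authors aligned reads with MapSplice to mm10 and deposited HTSeq (0.9.1) counts per gene of the UCSC models, 32594 genes in the table, as raw counts without normalization. All 28 columns matched a mouse by title.

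Counts were tested with edgeR (4.0.16) in R (4.3.3): filterByExpr, TMM, glmQLFit and glmQLFTest, with sex as a covariate, in the 7 PSD + restraint and 6 restraint mice. A call needs an adjusted p (Benjamini-Hochberg) of 0.05 or less and a log2 difference of 0.32 or more in either direction. The study's own test, DESeq2 (here 1.42.0, there 1.16.1), was an alternative, here without the study's expression filter and on the mice of each comparison, as were other scalings, filters, covariates and each mouse left out. Log2 CPM for scores used a prior count of 2. Scripts were tested on simulated data. Counts total 14024465 to 52239975 per mouse, and low genes are less precise.

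Named genes were those called, every called member of a list or else the 2 of smallest p, 9 hormone genes, called genes of the sex and interaction fits, and the leading marker of cell types whose sums did not overlap. Others were named after their values were seen. Members and lists were chosen with earlier results of these data known. P-values measure the spread between these mice, of which 4 cage mates shared a tank. Positions are from GENCODE M21 on GRCm38 and promoters from RefSeq. 1 called gene is not reported here.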

Additional observations from a re-analysis of the deposited data

Results flagged for a closer look

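Single mice far from the others of their group were sought in 208 groups of 4 females (104 genes) by the gap to the nearest mouse over the range. There were 19 such values, where chance gives about 1 in 20 groups. Some of these genes were named after their values were seen, and genes of the same mouse are not independent. The number can therefore not be read as an excess over that rate. Restraint female 4 held 5 of them, all as the highest restraint female. H2-Eb1 was at 119.2 CPM (others 41.8 to 49.7), H2-Ab1 at 110.2 CPM (others 38.2 to 46.2), H2-Aa at 153.0 CPM (others 55.1 to 64.5) and Cd74 at 343.7 CPM (others 116.6 to 138.2), which are all MHC class II genes, and Cga was at 3899.0 CPM (others 2938 to 3062). Restraint female 3 was the highest of its group in Cox8b at 82.1 CPM (others 0.271 to 0.386), Scd1 at 1092.0 CPM (others 8.92 to 9.95) and Pdk4 at 43.4 CPM (others 3.73 to 7.30). Restraint female 2 was the highest in Zbtb16 at 15.72 CPM (others 6.655 to 8.07).

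PSD + restraint female 4 was the lowest of its group in Clu at 746.0 CPM (others 948.3 to 987), Arg1, which encodes arginase 1, at 7.319 CPM (others 10.2 to 10.7), Scg2 at 2140.0 CPM (others 2917 to 3048), Zbtb16 at 8.547 CPM (others 13.04 to 13.8) and Nr3c1 at 69.93 CPM (others 73.2 to 73.6). PSD + restraint female 2 was the highest in Cartpt at 1.931 CPM (others 1.335 to 1.432), Fshb at 633.0 CPM (others 116.8 to 169.6) and Lonrf1 at 39.01 CPM (others 30.45 to 31.8), and the lowest in Ccs at 16.3 CPM (others 17.7 to 18.0). PSD + restraint female 3 was the highest in Serpina3n at 5.88 CPM (others 5.13 to 5.22), a group in which the other values lay close together.

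The fitted response differed between the sexes for Xist, with a log2 difference, female minus male, of -2.81 (adjusted p = 0.00376 by edgeR's quasi-likelihood test). It rested on the low male levels given above, of which those after restraint alone are near the floor of counting. Fitted alone, females had a log2 fold change of 0.14.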

How the results depend on the processing

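The count of called genes moved with the processing. It was 28 (26 higher, 2 lower) with DESeq2, 17 (17 higher) with all 28 mice in the fit, 3 (3 higher) with the neurointermediate score as a term, 3 (3 higher) with edgeR's robust option and 0 with the replicate block. In settings added after seeing the data it was 2 (2 higher) with the neutrophil score as a term and 0 without the 3 libraries that stood apart. Leaving out each mouse in turn gave 1 to 61 calls, 1 to 49 of them higher and 0 to 12 lower, with the most without restraint female 2. Of 6 pairs of mice with equal numbers across groups, 0 correlated above 0.1 (-0.209 to 0.1). These correlations use deviations from the means of groups of 2 to 4 mice, and the 2 restraint males mirror each other. They cannot decide whether equal numbers pair the mice. With the block, females alone gave 0 calls. DESeq2 gave 151 calls for the difference between the sexes, with fold changes not shrunken. With shrunken fold changes it gave 87 in females and 145 in males. The unrestrained comparison gave 30 without control male 1 and PSD female 1. Of 14 other settings, Serpina3n kept its call in 11, Serpinb11 in 10, Lcn2 in 9, Cdh13 in 9 and Cys1 in 8; of 13 omissions of a mouse, in 13, 8, 10, 4 and 5. Their signs did not change.

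Signs turned in named genes that were not called. With the neurointermediate score, Cox8b had 0.063, Gh 0.198, Prl 0.013 and Scd1 0.475. Without the 3 libraries, Cox8b had 0.350, Gh 0.024, Tshb 0.036 and Scd1 0.278. Tshb had 0.001 with sex left out, 0.129 with the neutrophil score and -0.098 to 0.055 when each mouse was left out. Under the same omissions Cox8b had -5.006 to 0.461 and Scd1 -3.536 to 0.321, the highest of both without restraint female 3. Tshb was above 0 without restraint female 2, restraint male 2 or PSD + restraint male 2. Xist had -0.006 in DESeq2 and -0.069 with sex left out. The cause was not tested. Depth limits low genes, and 2 restraint males limit every male result.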
